A study of Mus musculus with 61 samples.

Results

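On the arrays of this study, 22 of 45037 probe sets separated the 129S6/SvEvTac mice from every other strain over the 5 regions sampled. A probe set is a group of short probes on the array that together report 1 transcript or a part of it. The members were chosen by their signals: every 129S6/SvEvTac array had to lie above, or every one below, all 51 arrays of the other strains, the group means (with means under 10 set to 10) had to differ at least 2-fold, and the larger mean had to reach 100. Histocompatibility genes with symbols starting with H2- were left out, but none of their 61 probe sets met the rest of the rule. Of all probe sets, 36 separated the arrays at any size of difference, which is 0.0799% of the array. The same rule, run with each of the other strains in turn, gave 14 probe sets for A/J, 12 for C3H/HeJ, 44 for C57BL/6J, 26 for DBA/2J and 22 for FVB/NJ.

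RNA was measured in 5 tissues of male inbred mice aged 8 weeks, to ask how expression varies with strain and region. The tissues were the pituitary gland, the hypothalamus, the hippocampus, the pag (periaqueductal gray) and the bnst (bed nucleus of the stria terminalis). The 6 inbred strains were FVB/NJ, DBA/2J, C57BL/6J, C3H/HeJ, A/J and 129S6/SvEvTac. Of the 61 arrays, 10 were of 129S6/SvEvTac and 51 of the other 5 strains, with 2 arrays for each strain and region, except that the bnst of C3H/HeJ had 3. Each array held RNA of 1 to 5 mice, pooled within a strain, after the mice had been housed singly. Every hippocampus array held 1 mouse and every pituitary array 5. By the study's methods, the hippocampus was frozen on dry ice and the smaller structures were kept in RNA Later. What sets the hippocampus or the pituitary gland apart thus cannot be told apart from pool size and, for the hippocampus, from storage. The 129S6/SvEvTac mice came from Taconic Farms and the mice of the other strains from The Jackson Laboratory, so that the strain and its supplier cannot be told apart. The samples were pieces of whole tissue, in which fewer cells of a type and less RNA per cell cannot be told apart.

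An inbred strain carries the same alleles in nearly all of its animals, and strains differ from each other at many sites in the genome. A difference between strains that appears in every tissue can arise at the gene itself, through its promoter, splicing or RNA stability, or through another gene that acts on it. On an array it can also arise where the strains differ in the bases under the probes, because each probe binds 1 short stretch of the RNA. The probe sequences were not compared with the strains here, and which of these holds for a member was not tested.

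Of the members, 5 were higher in 129S6/SvEvTac and 17 were lower. Of the 22 members, 14 named a gene, each a different one, and 8 had no gene name in the annotation used. The named genes that were higher were Ro60, Timmdc1 and Psip1, and the 11 that were lower were Dzip1, Tial1, Ppcdc, Lztfl1, Esco1, Riok3, Impact, Abcb10, Ctse, Ggps1 and Serinc3. In the order of the RefSeq gene table, Esco1, Riok3 and Impact lay close together on 1 chromosome, with 8 measured genes between Esco1 and Riok3 and 7 between Riok3 and Impact. The other pairs on a shared chromosome were far apart, with 97 measured genes between Ctse and Ro60 and 590 between Ppcdc and Lztfl1. By probe set suffix, 19 members were plain, 2 carried _s and 1 carried _x, the marks for probes that can also match other transcripts.

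The sequences before the transcription start of Dzip1, Tial1 and Ro60 are shown because these genes had the largest ratios of group means among the named members in their directions. They are 250 bases of RefSeq sequence of build GRCm38.p6, each on the minus strand and written 5′ to 3′. Capitals mark GGGCGG, the box bound by Sp1, and CCAAT, each on either strand, which do not overlap in these windows. Where a gene had several starts, the one farthest upstream was taken.
Dzip1, chr14:118925471-118925720: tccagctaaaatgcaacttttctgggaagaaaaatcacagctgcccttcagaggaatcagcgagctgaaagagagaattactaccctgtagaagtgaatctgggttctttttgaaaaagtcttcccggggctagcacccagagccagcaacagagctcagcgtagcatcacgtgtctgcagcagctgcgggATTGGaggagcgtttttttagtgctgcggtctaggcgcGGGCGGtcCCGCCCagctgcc
Tial1, chr7:128461674-128461923: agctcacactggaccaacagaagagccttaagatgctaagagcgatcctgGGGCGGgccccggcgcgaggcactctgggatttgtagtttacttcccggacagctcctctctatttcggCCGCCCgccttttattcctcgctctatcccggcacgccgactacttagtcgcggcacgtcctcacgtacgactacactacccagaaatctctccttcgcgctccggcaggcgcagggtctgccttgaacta
Ro60, chr1:143777052-143777301: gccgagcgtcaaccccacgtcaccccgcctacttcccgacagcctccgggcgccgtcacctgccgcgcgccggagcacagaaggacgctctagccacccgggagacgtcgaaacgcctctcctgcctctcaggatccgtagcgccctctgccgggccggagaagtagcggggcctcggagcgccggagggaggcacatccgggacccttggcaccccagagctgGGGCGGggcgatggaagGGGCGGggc

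GGGCGG stood 2 times in each of these 3 windows, and CCAAT once, in reverse, in that of Dzip1. In all 32851 promoters of the RefSeq table, GGGCGG was found in 32.7% and CCAAT in 33.8% of the same 250-base windows. The windows held 11 CpG pairs for Dzip1, 22 for Tial1 and 29 for Ro60, against a median of 6 over all promoters. The reference sequence is not that of 129S6/SvEvTac, and a match is a run of letters and not a bound site. Promoter entries existed for 9 of the 14 member genes.

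Dzip1, a zinc finger protein of the basal body that acts in primary cilia and hedgehog signalling, had the largest ratio. Its probe set 1443772_at gave no signal in 129S6/SvEvTac beyond the background of the array. The 10 values ran from -9.00 to 5.95, with a median of -1.28. In the other strains the lowest value was 149.5, the median 253 and the highest 451. No array of another strain came near the 129S6/SvEvTac range. The mean was -1.44 ± 3.79 (SD, n = 10) against 268 ± 74.1 (SD, n = 51), where the SD includes the differences between regions. The ratio was 26.8 with the lower mean set to 10.

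Tial1 encodes TIAR, an RNA-binding protein that controls splicing and translation and gathers in stress granules. Its probe set 1426352_s_at ranged from -23.2 to 11.7 in 129S6/SvEvTac, with a median of 3.65. The other strains read 81.9 to 309.8 (median 209). The means were 2.21 ± 9.33 (SD, n = 10) and 204 ± 58.4 (SD, n = 51), a ratio of 20.4 with the lower mean set to 10. Like Dzip1, this probe set was at the level of the array's background in all regions of 129S6/SvEvTac, and well above it on every other array.

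Ppcdc, the decarboxylase of coenzyme A synthesis, followed with 2.19 to 32.9 and a median of 7.53 in 129S6/SvEvTac, against 114 to 203 and a median of 160.5 elsewhere. Lztfl1, a regulator of the BBSome and of traffic into cilia, ran from 14.6 to 36.3 with a median of 17.6 in 129S6/SvEvTac and from 95.2 to 202 with a median of 160.2 in the other strains. Lztfl1 was above the array's floor of 12.8, the 20th percentile of all values, on every 129S6/SvEvTac array, and Ppcdc on some. The ratio of the group means was 7.64 for Lztfl1 and 14.4 for Ppcdc. The Ppcdc mean in 129S6/SvEvTac, 11.1, was itself under the floor, so that, as for Dzip1 and Tial1, the ratio is that of the rule and not a measured fold.

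The member probe sets of the 3 genes that lay close together on 1 chromosome were lower by factors of 3.52 to 5.42. Esco1, an acetyltransferase of the cohesin ring, had values of 16.8 to 65.8 (median 40.5) in 129S6/SvEvTac and 136 to 345 (median 203) in the other strains, a ratio of 5.42. Riok3, an atypical kinase of the RIO family, had 52.7 to 121 (median 65.2) against 260.3 to 562 (median 348), a ratio of 5.08. Impact, an imprinted gene whose product restrains the amino acid sensor Gcn2, had 26.0 to 79.6 (median 53.7) against 116 to 273 (median 173), a ratio of 3.52. None of the 3 was at background in 129S6/SvEvTac. Of the further probe sets of these genes, described below, only 1, of Impact, was called lower.

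Among the genes of mitochondria and lipids, Abcb10, an ABC transporter of the inner mitochondrial membrane, had 18.1 to 46.5 (median 31.1) in 129S6/SvEvTac and 49.3 to 192 (median 111) elsewhere. Ggps1, the synthase of geranylgeranyl diphosphate, had 88.6 to 144 (median 118) and 199.7 to 388 (median 289). The edges of the groups nearly met in Abcb10 and lay farther apart in Ggps1. The ratio of the means was 3.51 for Abcb10 and 2.46 for Ggps1.

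Ctse, the aspartic protease cathepsin E, had 28.5 to 78.1 (median 53.4) in 129S6/SvEvTac and 82.8 to 672 (median 144) in the other strains, a ratio of 3.396. All 5 marker genes of microglia were lower in 129S6/SvEvTac by the test used below for other genes, with a median log2 difference of -0.37 and a summed signal of 330 to 1872 against 472 to 2643. The part of these cells in the signal of Ctse was not tested. Serinc3, a membrane protein with many membrane spans, had 59.2 to 106 (median 89.2) and 124 to 273 (median 181), a ratio of 2.16.

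Of the members that were higher, Ro60, which binds Y RNAs and misfolded RNAs, stood farthest apart among those with a name. It ranged from 165 to 275 (median 239) in 129S6/SvEvTac and from 12.4 to 87.9 (median 33.4) in the other strains, a ratio of 6.03. Timmdc1, an assembly factor of respiratory complex I, had 139 to 242 (median 149.96) and 37.0 to 114 (median 75.3). Psip1, the chromatin-binding protein LEDGF, had 344 to 483 (median 386) and 135 to 297 (median 192). Both ratios were near the limit of the rule, at 2.19 and 2.01.

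The unnamed probe sets covered the same span. Probe set 1447360_at ranged from 166 to 435 (median 255) in 129S6/SvEvTac and from -3.82 to 26.4 (median 11.6) in the other strains, and was the only member whose mean in the other strains, 10.97, was under the floor. Its ratio of 24.2 likewise rests on values around the floor and is an uncertain fold. Probe set 1442255_at ranged from 96.4 to 157 (median 117) and from 10.1 to 67.3 (median 26.4). The 6 unnamed members that were lower had ratios from 2.31 for 1445884_at to 6.23 for 1441050_at. Among the unnamed members that were lower, 1455892_x_at had the widest spread in the other strains, with 139 to 278 (median 184) in 129S6/SvEvTac and 293 to 3071 (median 615) elsewhere.

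At the edge of the rule, the members just inside were Psip1 at 2.01, Serinc3 at 2.16 and Timmdc1 at 2.19. The probe sets just outside, which separated the arrays but by under 2-fold, were A930005H10Rik at 1.92, Avl9 at 1.83, a second probe set of Serinc3 (1455550_x_at) at 1.79, the unnamed 1443638_at at 1.76, Dctn5 at 1.70 and Pdhb, a subunit of pyruvate dehydrogenase, at 1.58. The second Serinc3 probe set was far brighter than the first, with a mean of 899 ± 81.3 (SD, n = 10) in 129S6/SvEvTac and 1610.2 ± 231 (SD, n = 51) in the other strains. Gdpd3, a phosphodiesterase of glycerophospholipids, was not a member, since FVB/NJ shared its high signal. Its mean was 402 in 129S6/SvEvTac and 782 in FVB/NJ, and between 4.59 and 9.25 in the other 4 strains.

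The levels of most members changed between regions. By limma's F test of the region means, 20 of the 22 members differed between regions, where 71.7% of all 44065 probe sets tested did. The median range between the highest and the lowest region was 0.67 on the log2 scale for the members and 0.64 for all probe sets tested. The members that were not called were the unnamed 1442255_at (adjusted p = 0.90) and 1445884_at (adjusted p = 0.85). The rule asked for separation over all regions at once, so that the share of members called cannot be read against the share of all probe sets as a result.

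The pituitary gland was the highest region for 12 members and the lowest for 6. The hippocampus was the highest for 3 and the lowest for 8, and the bnst was the highest for none. How often each region was highest or lowest over all probe sets was not counted, so these counts only describe the members. The largest region range was that of 1455892_x_at, 1.17 on the log2 scale, whose median in the other strains was 1219 in the pituitary gland and 538 in the bnst. Probe set 1457797_at, with a range of 0.96, had its highest level in the hippocampus, where the other strains had a median of 336, and its lowest in the pituitary gland, where they had 138. Next were 1417360_at with 0.93, Ctse with 0.90 and Abcb10 with 0.89. Ctse and 1417360_at were highest in the pituitary gland. Abcb10 was lowest there, with a median of 74.1 in the other strains against 146 in the pag, where it was highest.

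Differences among the other 5 strains were called for 10 of the 22 members, beside 33.2% of all probe sets tested. The median range of the strain means was 0.29 on the log2 scale for the members and 0.31 for all. The rule placed all arrays of the other strains on the same side of 129S6/SvEvTac, which favours small differences among them. It also asked for a bright signal, so neither the count nor the range can be read against all probe sets as a result. Probe set 1455892_x_at had by far the widest range among the other strains, 1.97 (limma, adjusted p = 1.61e-26), with a mean of 1656 ± 783 (SD, n = 10) in C57BL/6J and 407 ± 159 (SD, n = 10) in FVB/NJ. FVB/NJ thus lay nearest to the 129S6/SvEvTac mean of 192 ± 42.2 (SD, n = 10). Ctse ranged by 1.22 (limma, adjusted p = 1.44e-11), and its high strain was DBA/2J with 322 ± 154 (SD, n = 10). The other 4 strains had Ctse means between 131 and 162. DBA/2J in the pituitary gland held the 2 highest Ctse values.

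Ro60 ranged by 0.99 (limma, adjusted p = 5.13e-05) among the other strains. Its mean was 58.95 ± 17.2 (SD, n = 10) in C57BL/6J and between 30.3 and 36.6 in A/J, C3H/HeJ, DBA/2J and FVB/NJ. The lowest 129S6/SvEvTac array, at 165, was still above the highest C57BL/6J array, at 87.9. Abcb10 ranged by 0.69 (limma, adjusted p = 6.86e-06), with A/J lowest at 83.2 ± 29.8 (SD, n = 10) and C3H/HeJ highest at 131 ± 38.7 (SD, n = 11). Dzip1 ranged by 0.66 (limma, adjusted p = 2.85e-09), with C57BL/6J lowest at 195 ± 39.7 (SD, n = 10) and A/J highest at 310 ± 82.1 (SD, n = 10). The other calls were for Riok3, Psip1, Timmdc1, Serinc3 and 1447360_at, with ranges of 0.26 to 0.43. The call of 1447360_at rested on values around the floor and was lost under 4 of 7 other settings of the fit and on leaving out each of 34 of the 61 arrays. That of Timmdc1 was lost with each array scaled to the same median (adjusted p = 0.13) and after quantile normalization (adjusted p = 0.098).

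The size of the 129S6/SvEvTac difference varied between regions for 7 of the 22 members, beside 3.67% of all probe sets tested. These were the unnamed 1441050_at, 1457797_at, 1455892_x_at and 1442992_at, and Impact, Serinc3 and Dzip1. The rule fixed the direction of these differences in each region but not their size. It chose members with a large difference, whereas the share is over all probe sets whatever their difference. The count thus cannot be read against that share as a result. The count was 3 when each array was scaled to the same median, and 12 without the first 129S6/SvEvTac array of the pag, where Ppcdc, Lztfl1, Esco1, Riok3 and Ctse were called in addition.

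For 1441050_at the log2 difference was -3.35 ± 0.16 (SE) in the hippocampus, -3.14 ± 0.16 (SE) in the bnst and -3.08 ± 0.16 (SE) in the pituitary gland. It was smaller in size in the hypothalamus, at -1.99 ± 0.16 (SE), and in the pag, at -1.73 ± 0.16 (SE) (limma, adjusted p = 4.45e-06 for unequal differences). For this member the 129S6/SvEvTac arrays read 2.15, which is under the floor, and 13.96 in the hippocampus, and 31.2 and 33.9 in the pag. For 1457797_at the difference was -3.38 ± 0.24 (SE) in the hippocampus and -1.29 ± 0.24 (SE) in the pituitary gland (limma, adjusted p = 0.000245). The hippocampus was where the other strains had most of it, with values of 281 to 387, but the 129S6/SvEvTac arrays read 19.1 and 53.5 there.

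Impact, called with a limma adjusted p of 0.00110, had its widest difference in the hippocampus, -2.49 ± 0.14 (SE), and its narrowest in the pag, -1.40 ± 0.14 (SE). Probe set 1442992_at had its extremes in the same regions, with -3.14 ± 0.20 (SE) in the hippocampus and -1.46 ± 0.20 (SE) in the pag (limma, adjusted p = 0.00110). Both of its 129S6/SvEvTac arrays in the hippocampus, at 4.68 and 10.3, lay under the floor, so that the size of that difference was set by the floor, and the call was lost with a floor at the 40th percentile (adjusted p = 0.71) and on untransformed signals (adjusted p = 0.60). The call of Impact was lost on untransformed signals as well (adjusted p = 0.18). Probe set 1455892_x_at differed most in the pituitary gland, by -2.37 ± 0.08 (SE), and least in the hypothalamus, by -1.65 ± 0.08 (SE). Serinc3 and Dzip1 differed most in the pituitary gland as well, Serinc3 by -1.59 ± 0.12 (SE) there and -0.86 ± 0.12 (SE) in the hippocampus. The largest difference was in the pituitary gland for 8 members, in the hippocampus for 7, in the hypothalamus and the pag for 3 each and in the bnst for 1. The smallest was in the pag for 9. For these counts, too, the shares over all probe sets were not counted.

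For Dzip1 all 10 values of 129S6/SvEvTac were raised to the floor, so that its differences, from -4.02 ± 0.12 (SE) in the bnst to -4.78 ± 0.12 (SE) in the pituitary gland, follow the levels of the other strains and are smaller in size than they would be without a floor. In the other strains the mean of this probe set was highest in the pituitary gland, at 361, and lowest in the bnst, at 212, with 278 for the hypothalamus, 249.8 for the pag and 244 for the hippocampus. The difference of Tial1, whose 129S6/SvEvTac values were at the floor as well, ran from -3.43 ± 0.28 (SE) in the pituitary gland to -4.30 ± 0.28 (SE) in the hypothalamus and was not called unequal (limma, adjusted p = 0.58). In Ro60 the 129S6/SvEvTac arrays read 251 and 275 in the hippocampus and 165 and 179 in the pituitary gland. The other strains had medians of 49.0 and 30.4 there. Their lowest median, 26.2, was in the pag, where 129S6/SvEvTac read 217 and 232. The Ro60 difference was 2.51 to 2.99 over the regions and was not called unequal (limma, adjusted p = 0.86). On untransformed signals with an ordinary F test it was called (adjusted p = 9.09e-05). Probe set 1447360_at read 352 and 435 in the pituitary gland of 129S6/SvEvTac and 166 and 210.01 in the hippocampus, while no other strain exceeded 26.4 anywhere.

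Most member genes are also read by further probe sets on the array, which the rule did not use. There were 36 of them for 13 of the 14 genes, and Timmdc1 had none. In limma's test of 129S6/SvEvTac against the mean of the other 5 strains, 13 of the 36 (36.1%) were called in the direction of the member, 7 were called in the opposite direction and 16 were not called. Of all probe sets tested, 9.93% were called higher and 8.8% lower. The median absolute log2 difference was 0.27 for the 36 and 0.11 for all, and 7 of the 13 genes had at least 1 further probe set called in the member's direction. These probe sets share the arrays with the members, and each failed the rule.

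Tial1 was the gene whose further probe sets all followed the member, with 4 of 4 called lower. The largest of these differences was that of 1452821_at, -0.56 ± 0.03 (SE, limma, adjusted p = 1.21e-16), with 305 to 518 in 129S6/SvEvTac and 426 to 774 in the other strains. The ranges of the groups overlapped, and the signal was far above background in every strain. The difference of the member was -3.92 ± 0.12 (SE). Serinc3 had 3 of 5 called lower, led by 1455550_x_at at -0.83 ± 0.03 (SE, limma, adjusted p = 2.47e-22), and 1 called higher, 1456080_a_at at 0.28 ± 0.04 (SE, limma, adjusted p = 2.19e-07). Abcb10 had 1 of 2 called lower, 1416402_at at -0.87 ± 0.04 (SE, limma, adjusted p = 6.97e-19), with 118 to 206 against 155 to 452.

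Dzip1 was split. Of its 4 further probe sets, 1452792_at and 1428469_a_at were lower, by -0.33 ± 0.04 and -0.33 ± 0.07 (SE), 1452793_at was higher, by 0.86 ± 0.18 (SE, limma, adjusted p = 0.000440), and 1421542_at was not called. The brightest, 1452792_at, read 219 to 708 in 129S6/SvEvTac and 284 to 1071 elsewhere, so that RNA of this gene was measured in 129S6/SvEvTac although the member read nothing above background.

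For Esco1, Riok3 and Ro60 no further probe set followed the member. The other Esco1 probe set, 1424325_at, was higher in 129S6/SvEvTac by 0.79 ± 0.11 (SE, limma, adjusted p = 8.56e-07), with a mean of 82.4 against 48.4, where the member was lower by -2.49 ± 0.08 (SE). Riok3 had 1422650_a_at higher by 0.54 ± 0.04 (SE, limma, adjusted p = 3.34e-12) and 2 probe sets that were not called, among them the brightest, 1415747_s_at, at 0.04 ± 0.04 (SE). Ro60 had 1436535_at lower by -0.42 ± 0.07 (SE, limma, adjusted p = 6.66e-05) and 2 not called. Ppcdc, Ggps1 and Ctse had no further probe set that was called in either direction. Lztfl1 had 1 lower, 1 higher and 2 not called. Impact had 1446751_s_at lower by -0.65 ± 0.11 (SE, limma, adjusted p = 3.34e-05), while its brightest, 1415911_at, gave -0.11 ± 0.05 (SE, limma, adjusted p = 0.11) with a mean of 1759 against 1915. Psip1 had 1 called in each direction.

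The genes next to the members were examined in the order of the RefSeq gene table, taking the 3 nearest measured genes on each side and, for each, its brightest probe set. Of 84 such neighbours, 17 (20.2%) were called in the direction of the member, 10 were called in the opposite direction and 57 were not called, beside 9.93% of all probe sets called higher and 8.8% called lower. With 1 gene on each side, the counts were 6, 5 and 17 of 28. The largest lower neighbours were Pkig, an inhibitor of protein kinase A, near Serinc3, at -1.01 ± 0.05 (SE, limma, adjusted p = 3.81e-18), Arhgap31 near Timmdc1, at -0.92 ± 0.06 (SE, limma, adjusted p = 9.54e-14), and Gm16835 near Dzip1, at -0.80 ± 0.12 (SE, limma, adjusted p = 4.99e-06). Pkig read 132 to 258 in 129S6/SvEvTac and 222 to 510.0 in the other strains. Gm16835 was dim, with 1.68 to 35.2 in 129S6/SvEvTac and 13.7 to 42.5 in the other strains.

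The largest higher neighbours were Uggt2, a glucosyltransferase of protein folding, near Dzip1, at 1.03 ± 0.06 (SE, limma, adjusted p = 7.58e-16), Snapc3, a subunit of the complex that starts small nuclear RNA genes, near Psip1, at 0.54 ± 0.03 (SE, limma, adjusted p = 4.97e-15), and Ccdc171 near Psip1, at 0.48 ± 0.15 (SE, limma, adjusted p = 0.018). Uggt2 was thus higher where its neighbour Dzip1 was lower. Snapc3 and Ccdc171, on either side of Psip1, were higher like the member probe set of Psip1. Snapc3 read 321 to 476 in 129S6/SvEvTac and 201 to 360 elsewhere. Ccdc171 was dim and its ranges overlapped, with 17.4 to 49.9 in 129S6/SvEvTac and 1.27 to 58.7 elsewhere. The brightest probe set of Psip1, 1460403_at, was lower, by -0.30 ± 0.04 (SE). Both direct neighbours of Ggps1, Tbce and Arid4b, were lower like its member probe set, by -0.32 ± 0.03 and -0.27 ± 0.05 (SE). The 3 further probe sets of Ggps1, its brightest among them, were not called. Both direct neighbours of Ro60, Glrx2 and Uchl5, were lower where its member probe set was higher, by -0.15 ± 0.03 and -0.21 ± 0.05 (SE). The brightest probe set of Ro60, 1436534_at, was not called, at -0.11 ± 0.06 (SE, limma, adjusted p = 0.18).

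Between Esco1 and Impact lay 15 measured genes besides Riok3. Of these, 3 were called lower (Mib1, Ankrd29 and Ttc39c), 2 were called higher (Rmc1 and Lama3) and 10 were not called, where 1777 of all 17947 genes measured were called lower and 1776 higher. The largest of the lower was Ankrd29 at -0.41 ± 0.10 (SE, limma, adjusted p = 0.0017). The 3 member probe sets gave -2.49, -2.36 and -1.89. They were chosen for their difference, whereas the genes between were read by their brightest probe sets, so these values are not alike. By the brightest probe set, Riok3 (0.04 ± 0.04, SE) and Impact (-0.11 ± 0.05, SE) were not called either, while that of Esco1 was the member itself. This stretch was chosen after the members were seen to lie on it.

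In the lists of genes that work with the members, calls went in both directions. Of 24 measured genes of the primary cilium and hedgehog signalling, the list that holds Dzip1, 4 were called higher in 129S6/SvEvTac (Bbs2, Bbs7, Gpr161 and Kif7) and 4 lower (Cep164, Cep290, Ift20 and Dzip1 itself by its brightest probe set). The median log2 difference was 0.02, as it was over all 17947 genes measured. Cep164, a protein of the distal appendages of the basal body, had the largest difference of the list, -1.01 ± 0.06 (SE, limma, adjusted p = 2.10e-15), with 33.2 to 98.3 against 77.7 to 209. Of 17 measured RNA-binding proteins of stress granules, the list that holds Tial1, 2 were called higher (Fxr2 and Pabpc1) and 4 lower (Ddx3x, Elavl1, Fmr1 and Tial1), with a median of -0.03. Tia1, the closest relative of Tial1, was not called, at 0.10 ± 0.05 (SE, limma, adjusted p = 0.17).

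Larger families also had calls in both directions. Over all genes measured, 1776 were called higher and 1777 lower. Among 335 zinc finger genes with Zfp symbols, 26 were higher and 59 lower, among 155 RNA-binding and splicing proteins 11 and 36, and among 98 subunits of the respiratory chain and ATP synthase 27 and 7. Their medians were -0.04, -0.02 and 0.05 on the log2 scale. Interferon-induced genes gave 1 and 8 of 60, and histone genes gave 10 and 3 of 47. In the other families the counts higher and lower were 40 and 37 of 345 solute carriers, 9 and 8 of 72 Rab GTPases, 7 and 8 of 56 cadherins and protocadherins, 5 and 6 of 84 potassium channels and 4 and 5 of 69 cytochrome P450 enzymes. They were 7 and 6 of 31 aminoacyl-tRNA synthetases, 6 and 10 of 57 ribosomal proteins, 9 and 5 of 49 proteasome subunits, 8 and 15 of 100 ubiquitin enzymes, 3 and 2 of 24 glutathione S-transferases and 11 and 5 of 91 receptors with Gpr symbols. Genes known by RIKEN clone names gave 71 and 57 of 1253, and predicted genes 25 and 26 of 553. Of 6 glycerophosphodiester phosphodiesterases, Gdpd3 was the 1 called, at 3.51. These lists hold no member except Tial1, in the RNA-binding proteins.

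The regions kept their labels by marker genes. For 4 of the 5 regions the summed signal of the region's markers was higher on every array of that region than on any other array. The hypothalamus was the exception, with 11956 to 20031 on its own arrays and at most 14022 elsewhere. Of 62 marker genes measured for regions and cell types, 4 were called higher and 10 lower in 129S6/SvEvTac. Replicate arrays correlated with r between 0.974 and 0.998, and the 129S6/SvEvTac arrays had median signals of 43.7 to 65.0, within the span of 42.6 to 67.1 of all arrays.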

How the data were processed

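RNA of 5 brain regions from 6 inbred strains was measured on 61 one-colour Affymetrix mouse genome 430 2.0 arrays. The authors processed the scanned images in the TeraGenomics system, and the deposited intensity values are one background-corrected, globally scaled signal for each probe set. The system's version and scaling target are not given in the sources used here. Array means ran from 180.5 to 200.5, and 5.36% of the values were below 0. Present calls were not used here. Precision is limited by how many arrays there were.

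The rule was applied to the signals as deposited, after 64 control probe sets had been left out. Because the members were chosen by the 129S6/SvEvTac contrast, their ratios and differences in that contrast are descriptions with no test. The members and the gene lists were chosen with earlier results of these data known.

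Tests were made on log2 signals in limma (version 3.58.1, R 4.3.3), fitting 30 means, 1 for each strain in each region, which left 31 residual degrees of freedom, with a prior variance that followed the mean signal (eBayes, trend). A floor was set at the 20th percentile of the deposited signals, 12.8, to which lower values were raised. Of the probe sets, 972 never rose above it and were dropped, so that 44065 entered the tests. The p values were two-sided or from F tests, and Benjamini-Hochberg adjusted over all probe sets tested. Calls were made at an adjusted p under 0.05. The tests were region (5 means), the 129S6/SvEvTac difference between regions, the other 5 strains, and 129S6/SvEvTac against the mean of the other 5 strains for probe sets that are no members. By the study's methods, replicate arrays of a group came from different animals or different pools of animals, so the p values rest on the spread between such samples. On simulated data of 44065 probe sets, 200 brighter ones were changed by 1 on the log2 scale in 129S6/SvEvTac, and 198 were recovered for the strain difference. Another 200 brighter ones were changed by more than this in the hippocampus only, and 191 were recovered for the difference between regions. Smaller changes, and changes in dim probe sets, were not simulated, so that their recovery is not known.

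Probe sets were named from the platform annotation, in which 34945 name 1 gene, 932 several and 9160 none, and symbols were updated through Entrez identifiers to RefSeq for 34741. The files name no genome build, so the RefSeq gene table (GRCm38) gave names and gene order only. In full are given the members with the largest ratios, interactions and region or strain ranges, those nearest the limit of the rule, Dzip1, Tial1 and Gdpd3, and the 3 largest further probe sets and neighbours in each direction. Alternatives were the floor, the scaling of the arrays, the filter, untransformed signals with an ordinary test as in the study's regression, the replicate number as a block, the limits of the rule, and leaving out each region or array.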

Additional observations from a re-analysis of the deposited data

Results flagged for a closer look

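The 129S6/SvEvTac difference was unequal in the 5 regions for 7 members, by limma's F test of the differences adjusted over all probe sets. Of all probe sets tested, 3.67% were called. The count cannot be read against that share as a result, since the members were chosen for a large difference. All 7 were lower in 129S6/SvEvTac, by a factor that was widest in the hippocampus or the pituitary gland. The values were 4.449e-06 for 1441050_at, 0.00024518 for 1457797_at, 0.00065655 for 1455892_x_at, 0.0011004 for 1442992_at and 0.0011009 for Impact. They were 0.0061967 for Serinc3 and 0.041137 for Dzip1. All 10 arrays of 129S6/SvEvTac were lower than every other array for each of these members, as the rule requires, so that only the size of the difference varied.

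The hippocampus had the largest difference for 1441050_at, 1457797_at, 1442992_at and Impact. In these 4 the 129S6/SvEvTac arrays read between 2.15 and 53.5 in the hippocampus. The pituitary gland had the largest difference for 1455892_x_at, Serinc3 and Dzip1. The call of Dzip1 was lost on leaving out 24 of the 61 arrays, each in turn, and its 129S6/SvEvTac values were all under the floor of 12.8. The calls of 1455892_x_at, 1442992_at, Impact, Serinc3 and Dzip1 were each lost under some other settings of the fit, given below.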

How the results depend on the processing

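The rule gave 20 members with each array scaled to 1 median, of which 18 were among the 22, and 24 after quantile normalization, of which 21 were. It gave 10 with a larger mean of at least 200, and 38 without the pituitary arrays, of which 20 were among the 22. Leaving out each array in turn gave 21 to 25. For region the counts were 19 to 20, for unequal 129S6/SvEvTac differences 6 to 12 (12 without the first 129S6/SvEvTac array of the pag), for the other strains 9 to 11, for further probe sets 12 to 14 and for neighbours 15 to 19. With each array scaled to 1 median, the difference varied between regions for 3 members, and the calls of 1455892_x_at (adjusted p = 0.10), Impact (0.14), Serinc3 (0.11) and Dzip1 (0.26) were lost. The call of Impact was also lost after quantile normalization (0.12) and on untransformed signals (0.18), that of Serinc3 on untransformed signals (0.19), that of Dzip1 with the floor at the 10th percentile (0.079), and that of 1442992_at with the floor at the 40th percentile (0.71) and on untransformed signals (0.60). On untransformed signals the difference varied between regions for 10 members. The region call of Ppcdc was lost with the floor at the 10th percentile (0.71) and with median scaling (0.12). Among the other strains, the call of 1447360_at was lost with the floor at the 40th percentile, with median scaling (0.081), after quantile normalization (0.091) and on untransformed signals (0.59), and that of Timmdc1 with median scaling (0.13) and after quantile normalization (0.098). The causes were not tested. Neighbours counted 6 with 1 gene on each side and 3 between Esco1 and Impact, fewer genes by construction, the latter chosen after seeing the data. Of 66 single tests of members, which are F tests without a direction, 47 kept their side under the 7 other settings of the fits, 51 on leaving out each array and 41 under all of these.

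Whether same-numbered arrays of a strain were paired across regions could not be decided here. Over 435 pairs of groups the deviations of same-numbered arrays correlated with a median r of -0.0053, from -0.416 to 0.413. Of these pairs, 81 were over 0.1. Most of the pairs join different strains, which hold different mice, so the median says little about arrays within a strain. The main tests treated the arrays as unpaired. With the replicate number as a block, the counts were 20 for region, 7 for unequal differences, 10 for the other strains, 13 for further probe sets and 17 for neighbours, as without it. That block was shared by all strains, so the equal counts cannot show whether arrays within a strain were paired. Signals near the floor limit what the arrays show, since 3 members had a 129S6/SvEvTac mean under it.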
